A study of Rattus norvegicus with 24 samples.

Results

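The hypothalamus is the ventral part of the forebrain that links the nervous and endocrine systems. Its neurons release peptides into the portal vessels that control the pituitary, send axons to the posterior lobe, and set feeding, sleep, body temperature and water balance. Of the 24 arrays of the series, 4 carried hypothalamus RNA, and these were set against the 20 arrays of 5 other tissues. The members follow from the tissue labels alone. All animals were male Sprague-Dawley rats of 4, 10, 18 or 24 months with no treatment named in the labels, and every array carried RNA pooled from 10 rats of 1 tissue and 1 age. The other tissues were pituitary, spleen lymphocyte, liver, kidney and bone, with 4 arrays each, while the adrenal gland is not analysed here. The 4 ages serve as the replicates of a tissue, so a p-value here measures the spread between arrays of different ages and not the spread between rats, and all 6 tissues were taken from each rat of an age.

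Expression is given as the MAS5.0 signal, a linear intensity per probe set that the authors scaled to a target of 500 on each array. Signals below 100 were set to 100 before log2 was taken, and this value is called the floor. Of 10411 named genes, 9682 reached the floor on at least 4 arrays and were tested. A gene is called higher or lower where limma gave an adjusted p under 0.05 and the hypothalamus mean lay at least 1 log2 unit (2-fold) from the mean of the 5 other tissues, and ± denotes the standard error of that log2 difference, from 4 hypothalamus and 20 other arrays. Where the other arrays lay under the floor, the difference understates the true one. A gene is called apart where the lowest hypothalamus array lay at least 2-fold above the highest of the 20 other arrays, or the reverse, which is a description and no test. Signals of the hypothalamus are listed in the order of 4, 10, 18 and 24 months. In RNA of whole tissue, fewer cells of a type and less RNA per cell cannot be told apart, and levels of different probe sets are not compared.

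The hypothalamus arrays resembled one another more than they did the arrays of any other tissue. Pearson correlations of log2 signals ran from 0.92 to 0.96 among them, from 0.792 to 0.841 with pituitary arrays, and from 0.465 to 0.657 with the remaining tissues. Median signals were 235 to 271, and 77.9 to 81.0% of the genes reached the floor. The log2 ratio of 3′ to 5′ Actb signal, which is high in degraded RNA, was 1.10 to 3.09 in the hypothalamus, with the highest value at 10 months, against 0.48 to 3.74 elsewhere. The 10-month array also carried more signal of hepatocyte genes than the other ages, described at the end. Several defining genes of the labelled tissue were present. The hypothalamic peptides Oxt, Avp, Pmch, Hcrt and Trh were apart above all other tissues. Nkx2-1, a transcription factor needed for the ventral hypothalamus, was higher by 2.04. The peptide genes Cartpt and Gal were higher but not apart, the transcription factor Otp was not among the genes called, and Pomc lay under the floor in the hypothalamus.

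Against the mean of the 5 other tissues, 1183 genes (12.2% of those tested) were higher in the hypothalamus and 1084 (11.2%) were lower. These are the shares beside which the list counts against the 5 tissues below stand. Of the tested genes, 176 (1.82%) were apart above the other 20 arrays and 5 (0.0516%) were apart below, and all of them were also called by limma. For 106 of the 176, the next highest array was a pituitary array, and for the others it was bone (33), liver (20), spleen lymphocyte (10) or kidney (7). The gap to the next array was at least 3 log2 units for 20 genes. A further description is that 33 genes reached the floor on all 4 hypothalamus arrays and on none of the others. The median log2 difference of all tested genes was -0.13.

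Among the 176 genes apart above, the 20 with the largest differences included genes of myelin, of astrocytes, of axons and of peptide-secreting neurons. Mbp, which encodes myelin basic protein, led with signals of 16199, 13761, 19210.3 and 16494, while the other arrays ran from 67.1 to 293, with a median of 154. Its difference was 6.74 ± 0.21 log2 units (limma adjusted p = 1.20e-18), and no array of another tissue came near the 4 values. Pmch, the precursor of melanin-concentrating hormone, a peptide of lateral hypothalamic neurons that promotes feeding, followed with 10356, 13614, 14795 and 13303, against 36.3 to 327, with a median of 229. Next was Aldoc, the aldolase of astrocytes, at 11698, 8503, 12255 and 9485. Pituitary arrays measured 944 to 1336 for it and the remaining tissues at most 76.1, so the pituitary stood between. The others, with their log2 differences, were Oxt (5.80), S100b of astrocytes (5.73), Gap43 of growing axons (5.50), the prostaglandin D synthase Ptgds (5.49), the imprinted Nnat (5.45), Nap1l5 (5.24) and Ndn (5.10), the water channel Aqp4 (5.31) and Avp (5.28). They also included 6330403K07Rikl (5.20), the lipocalin Apod (5.04), Spetex2l2 (5.02), Fez1 of axonal transport (5.00), Sparcl1 of astrocytes (4.97), the vesicle protein Syngr3 (4.86), the calcium sensor Vsnl1 (4.79) and the dendritic Map2 (4.70). Adjusted p-values of the 20 ranged from 1.29e-23 to 7.72e-15 (limma).

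**Figure D1:**
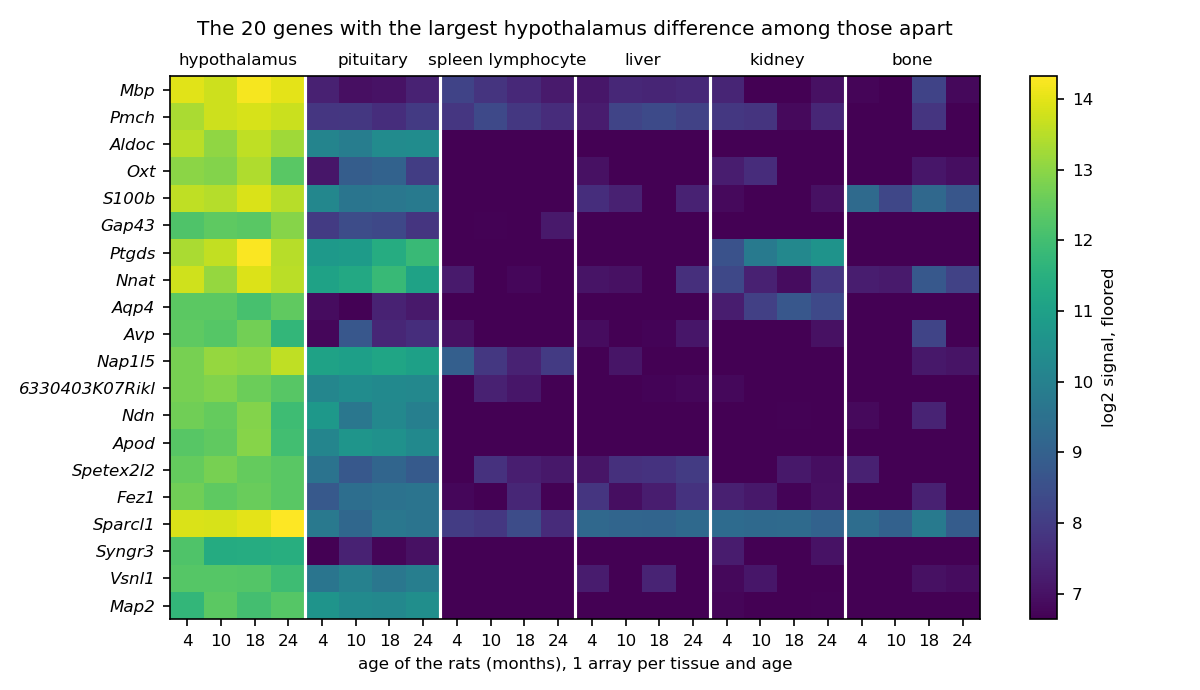
Heat map of the 20 genes with the largest hypothalamus difference among those apart, with 1 row per gene and 1 column per array, grouped by tissue and ordered by age in months. Colour gives the log2 signal after the floor. The 4 hypothalamus columns are brightest in every row. Pituitary columns are intermediate in many rows, among them Aldoc, Nap1l5, Map2, Apod, Ndn, Nnat and Vsnl1.

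Genes of hypothalamic neuropeptides were higher or not called, and none was lower. Of 40 listed hypothalamic neuropeptide genes, 31 were on the array and tested, of which 16 were higher and 0 lower, with a median difference of 1.17, and 8 were apart above all other arrays (Pmch, Oxt, Avp, Sst, Hcrt, Adcyap1, Trh and Tac3). Oxt and Avp encode oxytocin and vasopressin, made by magnocellular neurons of the paraventricular and supraoptic nuclei and released from axon ends in the posterior pituitary. Oxt measured 8136, 7578, 10767 and 5268 in the hypothalamus and 20.3 to 536, with a median of 99.1 on the other arrays, a difference of 5.80 ± 0.24 (limma adjusted p = 3.18e-16). Avp measured 5430.0, 5065, 6547 and 3373, against 37.3 to 428, with a median of 98.7, with a difference of 5.28 ± 0.25 (adjusted p = 7.72e-15). Both genes were highest at 18 months and lowest at 24 months, where Oxt was 5268 and Avp 3373, and for neither gene did the hypothalamus and the other arrays overlap. Outside the hypothalamus, the highest single array was a pituitary array for both genes. Pituitary arrays ran from 139 to 536 for Oxt and from 109.9 to 428 for Avp. They overlapped with other tissues, since Oxt measured 198.1 in kidney at 10 months and Avp 295.3 in bone at 18 months.

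The lateral hypothalamus was represented by a pair of peptides with other roles. Hcrt, the precursor of the orexins that keep animals awake, measured 3410.1, 1798, 3056 and 1733, against 23.5 to 372, with a median of 54.5 elsewhere (4.26 ± 0.23, limma adjusted p = 9.16e-14). Its values at 10 and 24 months were lower than at the 2 other ages, and Pmch did not share that order. The releasing and inhibiting hormones of the portal system differed in how far they stood out. Sst, which encodes somatostatin, the inhibitor of growth hormone release, measured 3774, 1597, 3224 and 2116, against at most 186, and was 4.61 ± 0.16 higher (adjusted p = 1.80e-17). Trh, the thyrotropin-releasing hormone precursor, measured 649, 459.6, 539 and 471, against at most 113, and was 2.38 ± 0.09 higher (adjusted p = 4.76e-17). Ghrh, which drives growth hormone release, measured 295, 216, 227 and 281 and was higher by 1.17, though its highest other array, from bone, reached 199.8. Crh, the corticotropin-releasing hormone of the stress axis, reached 132, 141, 203 and 195 while all 20 other arrays lay under the floor at 6 to 78.7, with a median of 24.5. That is at least 1.65-fold higher, and its difference of 0.72 missed the limit of a call. With the floor at 50, or with no floor, Crh was called. Gnrh1, the gonadotropin-releasing hormone of scattered preoptic neurons, measured 148, 204, 157 and 124, within the 37 to 224 of the other tissues.

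Peptides of feeding and of local signalling made up the rest of the list. Cartpt, the anorexigenic CART peptide precursor, measured 4602, 5519, 4233 and 5107, and although it was higher by 3.83 ± 0.26 (limma adjusted p = 6.69e-12), 1 pituitary array at 18 months reached 2952. Adcyap1, which encodes PACAP, measured 1050.1, 1214, 807 and 1030.2 with all other arrays under the floor, at least 10.1-fold higher. Tac3, the neurokinin B precursor of arcuate neurons, was at least 2.93-fold higher by the same reckoning, at 363, 234, 319 and 272. Galanin (Gal, 2.78), substance P (Tac1, 2.44), enkephalin (Penk, 2.36), Vip (1.86), nociceptin (Pnoc, 1.74) and cholecystokinin (Cck, 1.69) were also higher than the mean of the other tissues. Penk and Vip overlapped with the pituitary, at 2219 to 3147 and 319.9 to 672, against 2540.1 to 3785 and 446 to 737 in the hypothalamus. Tac1 did so too, at 97.6 to 634.5 in pituitary and 348.4 to 1195.8 in the hypothalamus. Its call against pituitary was lost without the 10-month (0.98) or 18-month (1.06) hypothalamus array, or the 4-month pituitary array (0.70). Npy, the feeding peptide of arcuate neurons, measured 2888, 1684, 1932 and 2164, above the pituitary at 516 to 785 but not above spleen lymphocyte at 2058 to 4762 or bone at 1422 to 4058, and was not called (0.99), though it was without the 10-month hypothalamus array (1.10). Of the other members past the floor on a hypothalamus array, none was called: Grp (0.84), Npvf (0.62), Nmu (0.46), Gast (0.26), Nxph4 (0.04), Nppc (-0.03), Pdyn (-0.10), Prlh (-0.36), Galp (-0.36), Npff (-0.48) and Ucn, at 102, 124, 168 and 171 in the hypothalamus against 75 to 301 elsewhere. With the floor at 50, Grp and Npvf were called. Pomc, the precursor of the melanocortins made by arcuate neurons and by pituitary corticotrophs, lay under the floor in the hypothalamus at 8.7, 8.7, 15.1 and 17 and measured 345 to 699 in the pituitary.

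**Figure D2:**
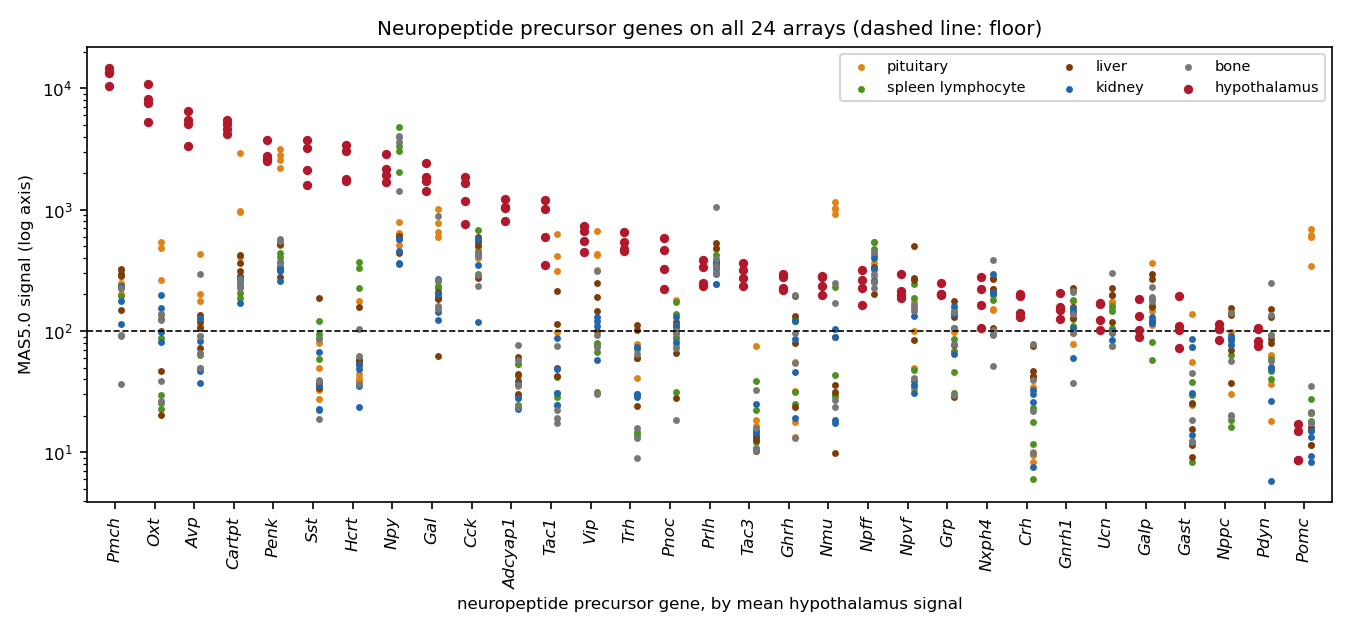
MAS5.0 signals (vertical log axis) of the 31 tested neuropeptide genes on the 24 arrays, ordered by mean hypothalamus signal, with 1 point per array coloured by tissue and a dashed line at the floor of 100. Hypothalamus points of Pmch, Oxt, Avp, Sst, Hcrt, Adcyap1, Trh and Tac3 lie clear of all others, while those of Npy, Penk, Vip and Tac1 overlap with other tissues.

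Sequences before the start sites of 4 of these genes are shown because the peptide genes differ in the short motifs held there. The windows are the 250 bases before each annotated start in RefSeq, build GRCr8, written 5′ to 3′ on the strand of the gene. Capitals mark a motif searched on both strands. In Oxt (chr3:138235504-138235753, plus strand) they mark the extended nuclear receptor element TCAAGGTCA on the opposite strand, 171 bases before the start. In Avp (chr3:138248523-138248772, minus strand), whose start lies close to that of Oxt on the same chromosome, they mark the E-box CACGTG bound by clock factors. In Cartpt (chr2:32991236-32991485, minus strand) they mark the cAMP response element TGACGTCA. In Vgf (chr12:25277021-25277270, minus strand), a granin precursor described with the processing genes, they mark the same element and the right arm of repressor element 1, GGACAGCGC, on the opposite strand, while an E-box between them is left in lower case.
Oxt: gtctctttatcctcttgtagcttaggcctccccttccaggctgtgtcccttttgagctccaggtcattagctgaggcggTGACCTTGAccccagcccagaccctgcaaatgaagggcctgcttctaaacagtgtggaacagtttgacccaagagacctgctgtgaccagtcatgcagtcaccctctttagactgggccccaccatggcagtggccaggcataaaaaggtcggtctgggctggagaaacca
Avp: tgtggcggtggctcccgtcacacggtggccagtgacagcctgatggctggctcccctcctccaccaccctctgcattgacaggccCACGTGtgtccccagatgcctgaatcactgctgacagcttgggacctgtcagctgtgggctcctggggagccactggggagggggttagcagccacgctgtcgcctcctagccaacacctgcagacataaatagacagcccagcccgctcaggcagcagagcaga
Cartpt: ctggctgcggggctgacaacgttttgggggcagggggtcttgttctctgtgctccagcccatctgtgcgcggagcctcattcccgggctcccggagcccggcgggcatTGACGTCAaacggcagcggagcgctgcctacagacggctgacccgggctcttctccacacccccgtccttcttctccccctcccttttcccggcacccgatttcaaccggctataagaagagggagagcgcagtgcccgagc
Vgf: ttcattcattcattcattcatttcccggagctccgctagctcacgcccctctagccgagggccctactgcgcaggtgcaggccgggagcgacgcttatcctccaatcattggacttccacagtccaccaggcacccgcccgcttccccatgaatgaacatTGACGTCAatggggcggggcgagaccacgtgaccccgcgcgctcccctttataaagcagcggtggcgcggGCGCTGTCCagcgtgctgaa

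Among promoters found for 131 of the 176 genes apart above, the cAMP response element was held by 5 (3.82%), against 2.92% of 8035 tested genes and 1.91% of all 27457 promoters, over windows of 250 bases before and 50 after the start. For the neuropeptide list it was held by 3 of 22 (13.6%), Cartpt, Sst and Ucn, the E-box by 3 of 22 as well (Avp, Nmu and Tac1), the extended nuclear receptor element by Oxt alone, and either arm of repressor element 1 by 0. The right arm of repressor element 1, the element through which REST silences neuronal genes outside the nervous system, was in 2 of the 131 (1.53%, against 0.759% of tested genes), and its left arm TTCAGCACC was in 2 (1.53%, against 0.51%). E-boxes were in 7 of the 131 (5.34%) and in 9.1% of tested genes, against 6.65% of all promoters. The extended nuclear receptor element was in 1 of the 131, Oxt, and in 0.187% of tested genes. These matches are a description of letters in a window, and Pmch was not in the promoter table.

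Genes that cut, amidate and store peptides in dense core vesicles were higher in 16 of 18 tested members, with 0 lower and a median of 3.0. Scg2 and Scg5, a secretogranin and the chaperone of a prohormone convertase, measured 5773, 6009, 6305 and 6471 and 6876, 8041, 8402 and 6372, respectively. They were 4.59 and 4.49 above the mean of the other tissues, but pituitary arrays were higher still, at 10200.1 to 11349.5 and 12920.4 to 14947. Cpe, the carboxypeptidase that trims prohormones, overlapped with pituitary (4.00, pituitary 17728 to 19893, hypothalamus 10783 to 18573). Vgf, whose promoter is printed above, was the 1 member apart above all other arrays, at 3120.1, 2030.1, 2078 and 2106 against 16.9 to 388, with a median of 103 (4.13 ± 0.19, limma adjusted p = 3.46e-15). Qpct, which forms the N-terminal pyroglutamate of peptides such as Trh, was 2.77 above pituitary. Against pituitary, Vgf and Qpct were higher, 2 of the 18 members, and Chgb (-2.52), Chga (-1.92), Nucb2 (-1.92), Pcsk2 (-1.31) and Resp18 (-1.30) were lower, the call of Pcsk2 being lost without the 24-month hypothalamus array (-0.97). Pcsk2, a prohormone convertase, was not called against the 5 tissues and measured 316, 314, 176 and 91.7.

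Of 47 listed transcription factors of hypothalamic development and identity, 23 were on the array and 18 were tested, of which 5 were higher (27.8%, beside 12.2% of all genes), 0 lower, and 0 apart. Arnt2, the partner of SIM1 in neurosecretory neurons, was higher by 2.21 ± 0.11 (limma adjusted p = 2.05e-14), with signals of 812, 1051, 780.3 and 689. A second probe set of Arnt2 did not differ by 2-fold (-0.08). With quantile normalization, after which the probe set of each gene was chosen anew, the difference of Arnt2 was -0.12. Nkx2-1 measured 522, 600.3, 604 and 613, against 25.2 to 315, with a median of 131, and the 2 sets of arrays did not overlap. Pou3f3 (1.14), Lhx2 (1.12) and Zfhx3 of the suprachiasmatic nucleus (1.06) were higher. The call of Lhx2 was lost without the 24-month hypothalamus array (0.94), and that of Zfhx3 without the 10-month (0.93) or the 24-month one (0.96). Other members were not called, among them Isl1 (0.39), Pbx3 (0.74) and Sox2 (0.31). Meis2 (-2.85), Isl1 (-1.19) and Zfhx4 (-1.09) were lower than in pituitary, and without the 4-month hypothalamus array the calls of Isl1 (-0.85) and Zfhx4 (-0.76) were lost. With the floor at 200 in place of 100, 2 members were higher, and with quantile normalization 3.

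Genes of neurons in general were higher as groups. Of 34 tested genes of synaptic vesicles and transmitter release, 23 were higher and 0 lower, with a median of 1.78, and 7 were apart above (Syngr3, Sncb, Rab3a, Dnm1, Sv2a, Nsf and Syn2). Snap25, the membrane protein of the fusion complex, had the largest difference, 5.58 ± 0.10 (limma adjusted p = 4.88e-23), with signals of 10458, 10122, 9626 and 14711. It was not apart, since pituitary arrays measured 5230.4 to 6912. Syngr3, a synaptic vesicle protein, measured 4705, 2661, 2708 and 2816, while the highest other array, from pituitary, reached 165. Sncb, the beta-synuclein gene, was 4.66 higher, and Rab3a, the GTPase of vesicle docking, 3.53. Vamp2, Syp, Syt4 and Snap91 were higher than the 5-tissue mean but were not called against pituitary, with differences to it of 0.64, 0.02, -0.17 and 0.53. Bsn, of the presynaptic active zone, lay 0.99 above pituitary (limma adjusted p = 1.66e-04), just under the 2-fold limit, and was called without the 10-month hypothalamus array (1.11). The most negative difference was that of Syngr1 (-0.28), whose probe set lay under the floor in the hypothalamus. Sv2b measured 226, 3000.2, 4178 and 3648, so its 4-month array was far below the others, and pituitary arrays reached 4632.

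Axon and dendrite cytoskeleton genes gave the highest share of calls of any neuronal list, with 41 of 45 tested members higher, 0 lower, a median of 2.37 and 14 apart above. Gap43, the growth-associated protein of axon ends, measured 4704, 5420.0, 5288 and 7784, against 19.5 to 346, with a median of 73.5 (5.50 ± 0.12, limma adjusted p = 2.41e-21). Rtn1 (5.12), Map2 (4.70), the microtubule regulator Stmn3 (4.66) and the deubiquitinase Uchl1 (4.58) came next. Neurofilament genes Nefl (4.13), Nefh (3.67), Nefm (3.12) and Ina (3.48) were all higher, and Nefl and Nefh were apart. Against pituitary, 28 of the 45 were higher and 0 lower. Tubb3, the neuronal tubulin, was not called through its kept probe set, which measured 105, 80.8, 89.5 and 171, close to the floor. A second probe set of Tubb3 measured 2662, 1342, 1384 and 1605, against 10.5 to 503 elsewhere, and differed by 3.6.

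Neuronal RNA-binding proteins were higher in 8 of 16 tested members, with 0 lower and a median of 1.28. Celf4 measured 2952, 3522, 3281 and 5490.4 and was 4.09 ± 0.13 higher (limma adjusted p = 2.99e-18), with its 24-month value above the other ages, and Celf5 (3.18) and the HuD gene Elavl4 (2.30) were also apart above. Rbfox3, the NeuN antigen that marks mature neurons, measured 632, 405, 558 and 498 (2.07). Rbfox1, a splicing factor of the same family, was near the floor at 93.5, 108, 101 and 166 and had the most negative difference of the list (-0.41), without a call.

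Most hypothalamic neurons use GABA or glutamate as the fast transmitter, and both systems were measured. Of 25 tested GABA and glycine genes, 9 were higher (36.0%, beside 12.2% of all genes), 0 lower, and 8 of the 9 were apart above. Gabrb2, a GABA-A receptor subunit, measured 2765, 2529, 1949 and 3354, against 4.6 to 346, with a median of 37.7 (4.39 ± 0.13, limma adjusted p = 6.78e-19). Slc12a5, the chloride extruder that makes GABA inhibitory, measured 6153, 6417, 5737 and 5222 and was 4.26 higher. The subunit genes Gabrb1 (3.78) and Gabra5 (2.87), the vesicular GABA transporter Slc32a1 (3.65), and both GABA-B receptor genes Gabbr2 (3.36) and Gabbr1 (3.01) followed. Glra2, a glycine receptor subunit, was under the floor on all other arrays and at least 4.32-fold higher. Gad1, which makes GABA, was not called through its kept probe set (98.7, 65, 172 and 168). A second Gad1 probe set, past the floor on fewer arrays, measured 4374, 5361, 4133 and 6863 in the hypothalamus and 1.9 to 112 on the 20 others, a difference of 5.65. Gad2 changed sides of the floor between ages, at 61.5, 66.9, 552 and 376, and was not called (0.99), but it was without the 4-month or the 10-month hypothalamus array (1.36 each). Gabrq had the most negative difference (-0.35).

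In the glutamate list, 15 of 41 tested genes were higher (36.6%, beside 12.2% of all genes), 0 were lower, and 6 were apart above. Slc17a6, the vesicular glutamate transporter VGLUT2 typical of the hypothalamus, measured 3763, 3872, 2859.9 and 7484, against 25.8 to 709, with a median of 150.4 (4.52 ± 0.25, limma adjusted p = 1.17e-13). Its cortical counterpart Slc17a7 measured 136, 133, 182 and 229, within the range of the other tissues (37.1 to 317). Gria2, an AMPA receptor subunit, was 3.40 higher with an uneven course over the ages, 489, 1556, 2357 and 2906. The pentraxin Nptx1 (3.13), the kinase subunit Camk2b (3.08) and Gria3 (2.48) were apart, and Grm3, a metabotropic receptor, was at least 5.04-fold higher. Homer2 had the most negative difference (-0.48) and was not called. For Camk2a, the kept probe set gave 0.29, while another measured 1542, 464, 407 and 219, against 4.5 to 146 elsewhere (2.30).

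Voltage-gated channel genes were higher in 17 of 45 tested members (37.8%, beside 12.2% of all genes) and lower in 0, and 6 were apart. These 6 were the potassium channels Kcnc2 (3.46) and Kcnc1 (3.08), which allow fast firing, the sodium channels Scn1a (3.42) and Scn2a, and the calcium channel genes Cacna1b (2.94) and Cacna2d3 (2.56). Scn2a was at least 7.28-fold higher, since no other array reached the floor. Kcnh3 had the most negative difference (-0.78). Kcnma1, Cacna1d, Kcna5, Kcnip3 and Kcnh3 were lower than in pituitary, with log2 differences of -1.97, -1.19, -1.0, -1.26 and -1.12. The call of Kcnip3 was lost without the 24-month hypothalamus array (-0.98), and that of Kcna5 without that array, the 18-month one, or the 4-month or 10-month pituitary array (-0.85 to -0.99).

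Monoamine, acetylcholine and histamine genes gave few calls, 3 of 39 higher and 1 lower, beside 12.2% higher and 11.2% lower among all genes. Hrh3, the histamine autoreceptor, measured 944, 627, 639 and 714, against 47.5 to 448, with a median of 121 (2.30 ± 0.25). Th, tyrosine hydroxylase of dopamine neurons, measured 681, 498, 814 and 784, against at most 286 (2.04 ± 0.21, limma adjusted p = 6.72e-09), so that all 4 arrays lay above the 20 others. Maob was higher by 2.10, though liver reached 5309. Gch1, which makes the cofactor of tyrosine hydroxylase, was lower (-1.85), with its highest signals in bone. Hdc, the histamine-forming enzyme of tuberomammillary neurons, was not called against the 5 tissues (0.96, and 1.05 and called without the 24-month hypothalamus array) but was 1.62 above pituitary, and Drd2, a dopamine receptor of lactotrophs, was lower than in pituitary (-2.90). The kept probe set of the serotonin receptor Htr2c gave -0.13, while another measured 1985, 2155, 1249 and 2152, against 9.2 to 141 on the other arrays (4.17). With the floor at 50 or no floor, 7 of the 39 were higher, and 5 or 6 when any 1 hypothalamus array was left out.

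Of 44 tested receptors for hormones and peptides, 7 were higher (15.9%) and 2 lower (4.55%), beside 12.2% and 11.2% of all genes, with a median of -0.04. Ntsr2, a neurotensin receptor of astrocytes, stood out at 3108, 2928, 3292 and 2920.3, against 67.5 to 246, with a median of 155 (4.28 ± 0.16, limma adjusted p = 5.88e-17). Hcrtr2, the orexin receptor of the arousal nuclei, measured 382, 444, 376 and 661 and was apart as well (2.16). The neurotrophin receptor Ntrk2 (2.42), the somatostatin receptor Sstr1 (1.88), the thyroid hormone receptor Thra (1.56), Trhr (1.43) and Gpr83 (1.40) were the others. Ghr, the growth hormone receptor, and Prlr, the prolactin receptor, were lower (-1.52 and -1.15), with highest signals of 6587 in liver and 2129 in kidney. Lepr, the leptin receptor, measured 136, 93.8, 103 and 218, and Mc4r, the melanocortin receptor of appetite control, 84.1, 65.2, 85.7 and 94.6, neither of them called. Calcr, Cnr1 and Adcyap1r1, the receptors for calcitonin and amylin, for cannabinoids and for PACAP, had differences of 0.01, -0.15 and 0.03 by their kept probe sets. A second probe set of Calcr measured 1117, 1296, 828 and 873 (3.08), one of Cnr1 966, 1436, 1177 and 992 (3.20) and one of Adcyap1r1 1860.2, 1828, 1471 and 1517 (3.47).

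Probe sets of 1 gene can disagree in both directions, and this was counted over all lists. In 23 genes the kept probe set differed by under 2-fold while another, past the floor on at least 4 arrays, differed by 2-fold or more, and the other one was higher in 17 and lower in 6. The rule keeps the probe set past the floor on most arrays and can pass over one that reaches it in 1 tissue. In the reverse direction, 88 called list members had a further probe set past the filter, and for 42 of them (31 higher, 11 lower) at least 1 such probe set did not reach 2-fold in the direction of the call. None of these was 2-fold in the opposite direction. Among genes named here, the second probe set gave -0.08 for Gabrb2, 0.49 for Kcnc2, -0.06 for Igf2, 0.56 for Hrh3, -0.13 for Thra, 0.67 for the microglial receptor P2ry12 and 0.34 for the sterol desaturase Sc5d. It gave -0.16 for Bsn, -0.43 for Gch1, -0.47 for Ghr, -0.56 for Prlr, -0.51 for Pklr, -0.67 for RT1-Db1 and -0.28 for Slc2a3. The further probe sets of Timp3 and Rpsa did not reach 2-fold either, nor did one of Vamp2 (-0.0002) and one of Timp2 (0.997). Of the 176 genes apart above, 30 had at least 1 further probe set past the filter, and of these 38 probe sets 28 were at least 1 log2 unit higher and 9 were apart too.

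Glial genes were higher as groups too. Of 28 tested myelin and oligodendrocyte genes, 23 were higher and 0 lower, with a median of 2.0, and 8 were apart above. Beside Mbp, these were the lipocalin Apod, the myelin proteins Mobp (4.54) and Mog (3.0), Bcas1 of newly myelinating cells (4.41), the receptor Gpr37 (3.87), and the lineage factors Olig1 and Sox10. Olig1 measured 1994, 1896, 1573 and 1859.5 and was under the floor on all 20 other arrays, at least 18.2-fold, and Sox10 was at least 3.56-fold higher by the same rule, at 564, 278, 296 and 347. Within the hypothalamus the values spread widely for some members, with 1 array per age and so no test, as for Mal at 2025, 1584, 1092 and 721 and Cnp at 5864, 4577, 3409 and 2963. Mal (2.40) and Pllp (2.51) were higher than the mean but not apart, since kidney reached 2271 and 1861. Gamt, of creatine synthesis, had the most negative difference (-0.30).

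Of 37 tested astrocyte genes, 26 were higher and 0 lower, with a median of 2.89 and 11 apart above. S100b, a calcium-binding protein, measured 12354, 11349.8, 15239.8 and 11456, and Aqp4, the water channel of astrocyte endfeet, 5322, 5387, 4336 and 5597. Pituitary arrays were the next highest for S100b, at 790.0 to 1184, and kidney for Aqp4, at 152 to 422. Gfap, the intermediate filament of astrocytes, was 4.63 ± 0.19 higher (limma adjusted p = 5.93e-16), with signals of 5996, 4148, 6058 and 5890.4, against at most 416. Ttyh1, at 1325, 1038, 3672 and 4164, was higher at the 2 later ages than at the 2 earlier ones. For the glutamate transporter Slc1a3 (GLAST), the kept probe set gave -0.08, and a second measured 5356, 6168, 4842 and 6584, against 51.1 to 906 elsewhere (4.71). Glul, glutamine synthetase, was not called (-0.08), with kidney at up to 7867, and a second probe set differed by 1.33. Ncan had the most negative difference (-0.09) and lay under the floor.

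Tanycytes and ependymal cells line the third ventricle. Of 14 tested genes of these cells, 6 were higher (42.9%, beside 12.2% of all genes) and 0 lower. Ptn, a growth factor, measured 2869, 3747, 1903 and 3551 (3.58), and the fatty acid binding proteins Fabp7 (3.34) and Fabp5 (1.74) and the sodium sensor Scn7a (2.38) followed. Scn7a was lower than in pituitary (-1.17), though not called without the 4-month hypothalamus array (-0.92), and Rarres2 had the most negative difference (-0.85), with liver at up to 19509.7. Of 16 tested genes of choroid plexus and meninges, which lie against the dissected tissue, 4 were higher and 2 lower. Ptgds measured 10443, 12483, 19690.3 and 11579.6, and Igf2, made by meninges and choroid plexus in the adult brain, 1873, 1529, 1442 and 1617, against 47.9 to 291, with a median of 171 (3.27 ± 0.19, limma adjusted p = 1.90e-13). Ttr, the most abundant choroid plexus transcript and also a liver transcript, measured 465, 1099.9, 361 and 453, with its highest value on the 10-month array. Prlr and Aqp1 were lower (-1.15 and -1.66). Of 21 tested genes typical of cortex, hippocampus, striatum or thalamus, 8 were higher (38.1%, beside 12.2% of all genes) and 0 lower. Calb2 (3.61) and Nptx1 (3.13) led them, while the cortical Tbr1 and Neurod2 measured 58.1, 58.4, 120.5 and 156 and 127, 27.2, 67.8 and 54.3 and were not called. Penk, Nrgn and Nptx1 of this list are also in lists above. Lef1 had the most negative difference (-0.49). What part neighbouring brain tissue had in these signals was not tested.

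Imprinted genes, expressed from 1 parental allele, were higher in 11 of 23 tested members (47.8%) and lower in 1 (4.35%), beside 12.2% and 11.2% of all genes. Of them, 5 were apart above (Nnat, Nap1l5, Ndn, Rasgrf1 and Igf2). Nnat, a small membrane protein of neuroendocrine cells, measured 14053, 8729.6, 15302 and 11851, and Ndn, a gene of the Prader-Willi region, 6467, 5824, 7643 and 3924. The other arrays were highest in pituitary, at 2132 to 3572 and 830.3 to 1713. Rasgrf1, a guanine nucleotide exchange factor, was 3.75 ± 0.23 higher (limma adjusted p = 9.21e-13). Meg3, Plagl1, Gnas, Mest and Dlk1 were lower than in pituitary, with differences of -1.44, -1.43, -1.26, -3.06 and -3.82. Against the 5 tissues the kept probe set of Gnas differed by 0.62 and a second one by 3.22. Igf2r, the receptor that clears IGF2, was lower than the mean of the other tissues (-1.08), a call lost without the 4-month hypothalamus array (-0.95). Snrpn, another gene of the Prader-Willi region, was near the floor at 58, 149.8, 69.2 and 146.

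Genes of energy metabolism were called in both directions. Of 31 tested genes of glycolysis and energy buffering, 14 were higher (45.2%) and 4 lower (12.9%), beside 12.2% and 11.2% of all genes. The isoforms known from brain were among the 14: Aldoc (5.99), the neuron enolase Eno2 (4.37), the creatine kinases Ckmt1 (3.04) and Ckb (2.96), Ldhb (3.04), and the glucose transporters Slc2a3 (1.32) and Slc2a1 (1.09), whose call was lost without the 4-month hypothalamus array (0.93). The 4 lower genes were the liver glucose transporter Slc2a2 (-1.87), the liver pyruvate kinase Pklr (-1.43), the muscle enolase Eno3 (-1.18) and Slc16a7 (-1.25). Eno2 measured 5836, 5883, 4383 and 4432, with pituitary at 2127 to 2838 and no other array above 283. Of 64 oxidative phosphorylation genes, 1 was higher (Ndufa8 of complex I, 1.41 ± 0.15) and 0 lower, with a median of 0.05 and Atp5f1e at the lowest difference (-0.81). Of 19 cholesterol synthesis genes, Sc5d (1.62), Sqle (1.39) and Msmo1 (1.07) were higher and Ebp lower (-1.21). Those are shares of 15.8% and 5.26%, beside 12.2% and 11.2% of all genes. Without the liver arrays, 7 of the 19 were higher and 0 lower. Ribosomal protein genes were lower in 4 of 32, a share of 12.5% beside 11.2% of all genes (Rpl22 -1.5, Rplp0 -1.19, Rpl18 -1.14 and Rpsa -1.13) and higher in 0, with a median of -0.62. The call of Rpl18 was lost without the 24-month hypothalamus array (-0.97). The highest array was a spleen lymphocyte array for most of them, and without those arrays 2 were lower, while without the kidney arrays or without the 18-month hypothalamus array 11 were lower.

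The hypothalamus holds the central clock of the suprachiasmatic nucleus. Of 16 tested clock genes, Bhlhe41 (2.66 ± 0.14) and Dbp (1.29) were higher and Nfil3 lower (-1.59), shares of 12.5% and 6.25% beside 12.2% and 11.2% of all genes. Bhlhe41, a repressor of the clock that is also linked to sleep length, measured 2348, 2624, 2955 and 2171, and pituitary arrays reached 2586. Per1 measured 446, 61.3, 55.7 and 107, so the 4-month array was above the other 3, and was not called against the 5 tissues (-0.72), though it was lower without that array (-1.26). Against pituitary, 0 clock genes were higher and Per1 was lower (-1.93). The sources used here give no time of day for tissue collection.

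**Figure D3:**
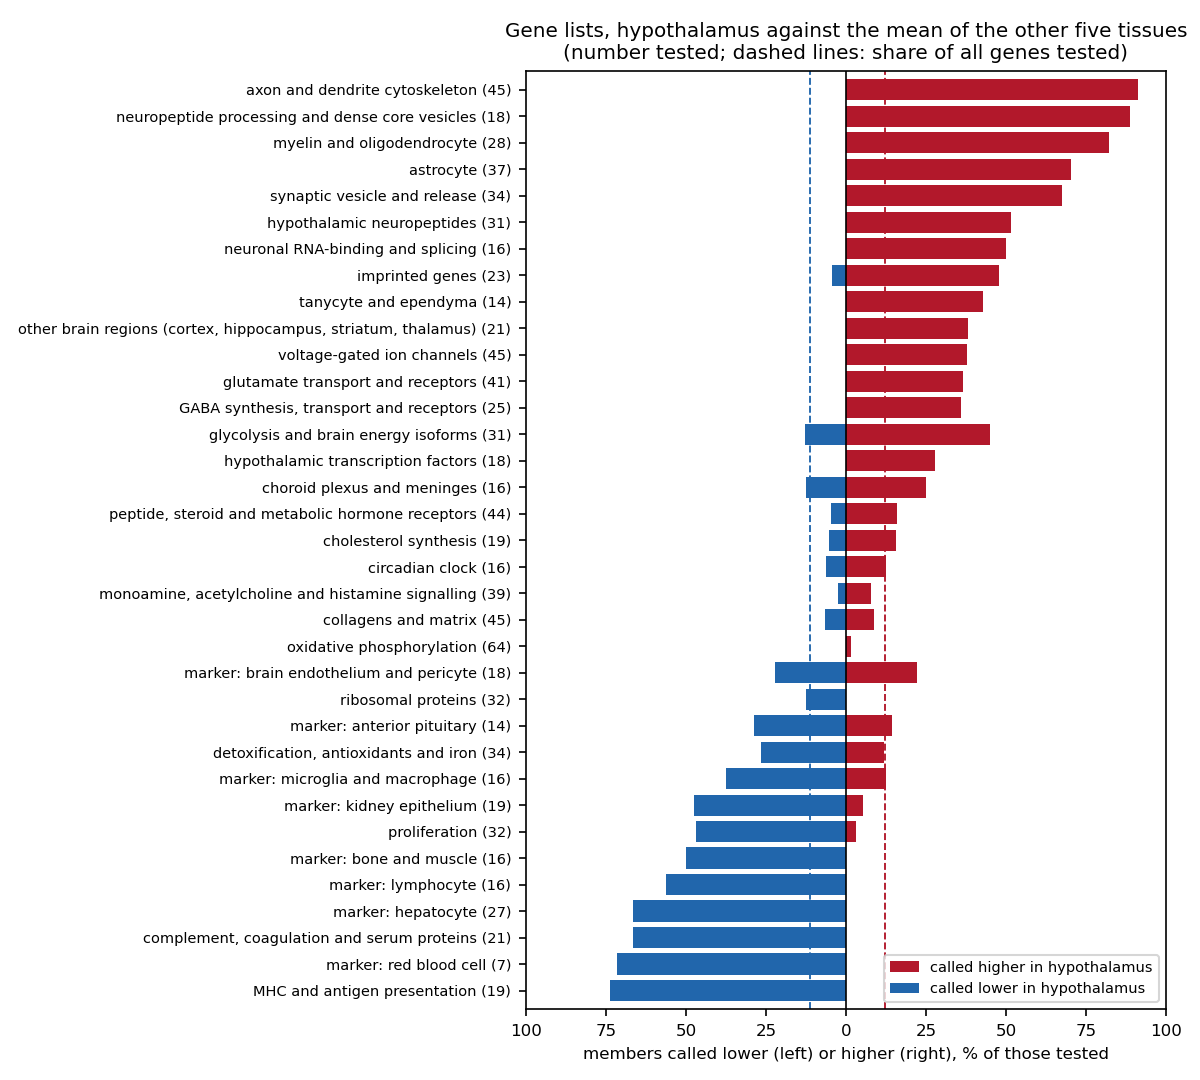
Percent of the tested members of each gene list called lower (blue, left) or higher (red, right) in the hypothalamus against the mean of the 5 other tissues, with the number tested in brackets. Dashed lines mark the shares among all genes, 11.2% and 12.2%. Axon, peptide processing, myelin, astrocyte and synaptic lists are at the top, and antigen presentation, red blood cell, complement and hepatocyte lists at the bottom.

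Lists of proliferation, antigen presentation and serum protein genes had more members lower than higher. Of 32 proliferation genes, 15 were lower and 1 was higher, with a median of -0.97. Cks2, a cyclin-dependent kinase subunit, was under the floor on all 4 hypothalamus arrays (70, 74.4, 47.8 and 20.9) and differed by -2.98 ± 0.16 (limma adjusted p = 9.42e-14), with spleen lymphocyte at up to 5975. Mki67 (-1.86), the cyclin Ccnd2 (-1.86) and the replication helicase gene Mcm2 (-1.84) followed. The 1 higher member was Stmn1 (1.81), a microtubule regulator that neurons also use. The highest signals of most members were in bone, and without the bone arrays 5 were lower. Genes of the major histocompatibility complex and antigen presentation were lower in 14 of 19 and higher in 0, with a median of -1.42. RT1-Da, a class II chain, measured 348, 357, 475 and 454 in the hypothalamus, against 657 to 23502, with a median of 2934 (-2.97 ± 0.18, limma adjusted p = 5.62e-13). Its chaperone Cd74 (-2.96), RT1-Db1 (-2.35) and the immunoproteasome subunit Psmb8 (-2.17) were lower as well. RT1-DMa had the least negative difference (-0.27).

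Complement, coagulation and serum protein genes were lower in 14 of 21 and higher in 0. Coagulation factor F5 (-2.94), complement factor D (Cfd, -2.12), prothrombin (F2, -1.81) and haptoglobin (Hp, -1.67) led. Liver held the highest array for most of them, and without the liver arrays 2 of the 21 were lower. Hp measured 522, 1729, 169.7 and 38.1 in the hypothalamus, the 10-month value being the highest, and its call was lost without the 24-month array (-1.06). Of 34 detoxification, antioxidant and iron genes, 4 were higher (11.8%, beside 12.2% of all genes) and 9 lower (26.5%, beside 11.2%). Mt3, the metallothionein of the brain, was higher (4.53 ± 0.34), as were the glutathione transferases Gstm5 (2.59), Gsta1 (1.38) and Gstm1 (1.16), the last without a call when the 18-month hypothalamus array was left out (0.95). Gpx1 measured 1627, 1985, 1843 and 1289 and was lower (-2.65), as were the iron exporter Slc40a1 (-2.31), Cat (-1.58) and Ephx1 (-1.54). Of 45 collagen and matrix genes, 4 were higher (8.89%) and 3 lower (6.67%), fewer in share than among all genes. Sparc (1.77), Timp3 (1.19), Fbln1 (1.12) and Timp2 (1.09) were higher, and Col18a1 (-1.67), Pcolce (-1.46) and Fn1 (-1.27) lower. The calls of Fbln1 (0.97) and Timp2 (0.99) were lost without the 18-month hypothalamus array and that of Timp3 without the 24-month one (0.96). With quantile normalization, 8 of the 45 were lower, without the spleen lymphocyte arrays 11, and without the 4-month hypothalamus array 6.

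The 5 genes apart below all 20 other arrays were Ifitm1 (-3.16), Aff1 (-2.94), Nedd4l (-2.06), Cmtm6 (-2.03) and Tmem179b (-1.91). Ifitm1, an interferon-induced membrane protein, measured 293, 246, 369 and 352 in the hypothalamus, while the other arrays ran from 1019.7 to 12532, with a median of 2908. Aff1, of a transcription elongation complex, measured 89.7, 201, 149.5 and 165, against 682 to 2177, with a median of 1187. Nedd4l, a ubiquitin ligase of sodium channels, measured 127, 165, 67.5 and 132, against 349 to 888, with a median of 563. Each of the 5 was thus present in every other tissue at every age and lower in the brain tissue. A second probe set of Tmem179b did not show the difference (0.08). Under 3 other scalings (no floor, quantile normalization and centring on the median), 3 genes were apart below.

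Many markers of other cell types were lower than the mean of the 5 tissues but not absent. Of 27 tested hepatocyte markers 18 were lower and 0 higher, and of 16 lymphocyte markers 9 and 0. The counts were 9 and 1 of 19 kidney epithelium markers, 8 and 0 of 16 bone and muscle markers, and 5 and 0 of 7 red blood cell markers. The 1 higher kidney marker was Calb1, the calcium buffer calbindin that neurons also use, at 2835, 3294, 2513 and 2973 (3.46). Each list marks cells of a tissue in that mean, so the counts of lower members follow in part from the comparison. Against pituitary, 1 hepatocyte marker was lower and 4 higher, and of the lymphocyte markers 0 and 1. For kidney epithelium the counts were 1 and 1, for bone and muscle 1 and 0, and for red blood cells 2 and 0. Defining markers were under or near the floor in the hypothalamus, as with Cd3e of T cells (11.2, 59.7, 20.3 and 87.7), Umod of kidney tubules (30.3, 23.1, 43.1 and 32.2) and Bglap of osteoblasts (3.3, 2.3, 5.5 and 5.1). Hbb of red cells, in contrast, measured 4549, 3962, 5065 and 2769, below the up to 37492 of bone. Of 16 microglia and macrophage markers, P2ry12 (1.91), the purinergic receptor of microglia, and Ctss (1.34) were higher and 6 lower, led by Cd68 (-2.37). Those are shares of 12.5% and 37.5%, beside 12.2% and 11.2% of all genes. Csf1r measured 1117, 729, 1009 and 959 and C1qa 994, 728, 1236 and 914, neither of them called. Of 18 endothelium and pericyte markers, 4 were higher and 4 lower (22.2% each, beside 12.2% and 11.2% of all genes). The 4 higher were genes of the blood-brain barrier, the tight junction Cldn5 (1.95), Slco1c1 (2.92), Abcb1a (1.39) and Slc2a1 (1.09, and 0.93 and not called without the 4-month hypothalamus array). Abcb1a lost its call with the floor at 200 and with the mean of all probe sets, and Slco1c1 is also in the astrocyte list. Slco1a4, Mfsd2a, Slc16a1 and Bsg of the same list were not called. The 4 lower were Anpep (-2.43), Kdr (-2.20), Pecam1 (-1.30) and Plvap (-1.23), the last a protein of leaky capillaries.

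The pituitary is the tissue most like the hypothalamus here, and its posterior lobe holds hypothalamic axons. Against it alone, 744 genes (7.68%) were higher in the hypothalamus and 859 (8.87%) lower, and 569 of the 744 were also higher against the 5 tissues. The median difference of all tested genes was -0.10. The 6 largest differences were those of Itih3 (6.83 ± 0.14), Mbp (6.82 ± 0.27), Pmch (5.82 ± 0.27), Aqp4 (5.29 ± 0.20), Agt (4.95 ± 0.22) and Syngr3 (4.68 ± 0.18), with limma adjusted p-values of 2.21e-21 to 1.53e-14. Itih3, a heavy chain of the inter-alpha-trypsin inhibitors, measured 11183, 10954, 11913 and 11539, against 10.8 to 70.6 in pituitary and 32114 to 35215 in liver. Agt, the angiotensin precursor made by astrocytes and liver, measured 3376, 2786, 3259 and 2944, against 45.8 to 96.3 and 4159.9 to 6186. Both genes kept a narrow range over the 4 hypothalamus ages.

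By list, the hypothalamus exceeded the pituitary most in glia. Of 28 myelin genes 25 were higher and 0 lower (median 2.25), and of 37 astrocyte genes 27 and 0 (median 1.71). Of 31 neuropeptide genes 15 were higher and 2 lower, the 2 being Pomc (-2.45) and Nmu (-2.06), and of 45 axon genes 28 and 0. Synaptic vesicle genes were higher in 12 of 34, with 0 lower, and GABA genes in 11 of 25, with 0 lower. The 14 anterior pituitary markers were all lower. Gh1, Prl, Tshb, Lhb and Fshb were among the 6 most negative differences, at -8.43, -8.27, -5.36, -5.00 and -4.91, with the epithelial adhesion gene Epcam at -4.91. Gh1, growth hormone, measured 146, 89.7, 74.8 and 49.4 in the hypothalamus, against 32493 to 48276. Prl, prolactin, measured 25.8, 21.5, 17.8 and 123, against 28302 to 36507. Of the markers, Cga and Tshb, the shared and the specific subunit of thyrotropin, were nevertheless well above the floor in the hypothalamus. Cga measured 2322, 2855, 4079.7 and 4647 there, 28949.9 to 35872 in pituitary and at most 364 in the 4 other tissues. Tshb measured 369.7, 795, 681 and 531, 21698 to 25730.1 and at most 178. Lhb (198 to 319) and Fshb (164 to 273) were past the floor in the hypothalamus too, below the highest of the 4 other tissues. Whether pituitary tissue attached to the dissected hypothalamus gave the Cga and Tshb signal was not tested, and the markers Gh1 and Prl were at or near the floor.

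**Figure D4:**
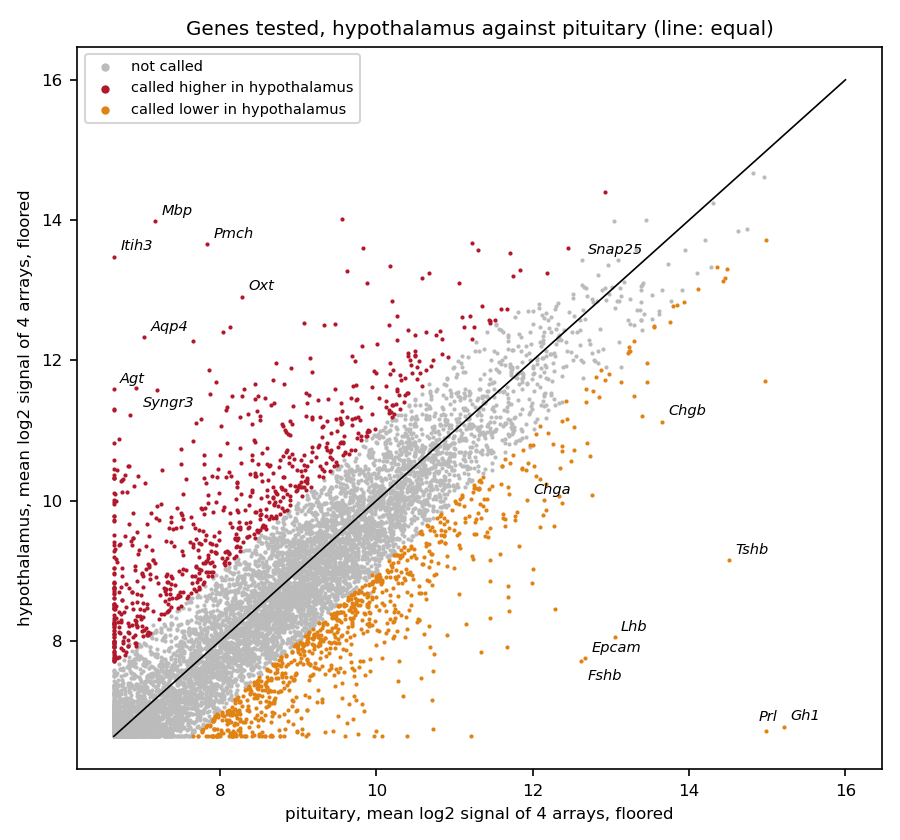
Mean log2 signal of 4 hypothalamus arrays (vertical) against that of 4 pituitary arrays (horizontal), 1 point per tested gene, after the floor, with the line of equality. The 744 genes called higher are red and the 859 called lower orange. Itih3, Mbp and Pmch lie far above the line, Gh1 and Prl far below it, and Snap25 near it.

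The 4 hypothalamus arrays also varied among themselves. The median SD of the 4 log2 signals was 0.267, between those of pituitary (0.201), kidney (0.224), spleen lymphocyte (0.237) and liver (0.243) on one side and bone (0.299) on the other. Of the tested genes, 1526 (15.8%) ranged over at least 2-fold between ages, against 7.0% in pituitary and 27.3% in bone. With 1 array per age, these ranges have no test. The 8 genes with the largest range were Cdh22, Slc3a1, Rab14, Srrm2, Dync1li1, Gnb1, Id2 and Alb. Cdh22, a cadherin of brain and pituitary, measured 3808, 155, 7587 and 7025, so the 10-month array stood far below the other 3. Slc3a1, a cystine transporter subunit of kidney, measured 484, 391, 9086 and 13948. The vesicle GTPase Rab14 (508, 780.4, 4343 and 17384), the dynein subunit Dync1li1 (550.4, 444, 2953 and 12598), the G-protein beta chain Gnb1 (1237, 866, 8601 and 24011) and the regulator Id2 (587, 441, 2758 and 11409) were low at 4 and 10 months and highest at 24 months. Srrm2, a splicing factor, measured 125, 328, 4269.7 and 3581.

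Other probe sets of these genes gave other courses. A second probe set of Gnb1 ran in the opposite direction, at 3136, 3434, 263 and 172.5, and another stayed between 473 and 605. For Id2, the second probe set stayed between 300.0 and 409 (range 0.45 log2 units), against 4.69 for the kept one. Of the 3 other probe sets of Rab14, 1 measured 360.1, 347, 2152 and 1855 (range 2.63), and the ranges of the others were 0.24 and 0.71. For Srrm2 the second probe set ran from 736 to 1409 (range 0.94). In kidney the kept probe sets of Rab14, Srrm2, Dync1li1 and Gnb1 were low at every age, at most 774, 348, 589.7 and 554, and in spleen lymphocyte they were high, at least 8098, 7092, 9159 and 11396. Agreement between probe sets was found for Alb, described next.

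Alb, serum albumin made by liver, measured 1371, 9579.5, 393 and 376 in the hypothalamus, and its second probe set 737, 4615, 252 and 323. On the 10-month array the summed signal of the 27 tested hepatocyte markers was 23770, against 4796 to 7240 at the other ages and 640700 to 714100 in liver. Gc (274, 1456, 173 and 118), Hp (522, 1729, 169.7 and 38.1), Apoc3 (368, 1196, 259 and 169.6) and Fgg (195, 968, 42.6 and 122) were also highest at 10 months. The same array had the highest 3′ to 5′ ratio of Actb among the 4, and its deviations from the tissue mean correlated across genes with those of the 18-month kidney array (r = 0.414, across genes, which are not independent replicates). Same-age pairs with the hypothalamus ran from -0.199 to 0.14. Other pairs of different ages are not given here, so how far this pair stands out among them is not shown. What part liver RNA had in the results was not tested. Without the 10-month hypothalamus array and the 18-month kidney array, an alternative chosen after seeing the data, 1186 genes were higher and 1077 lower, 183 were apart above and 7 apart below.

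**Figure D5:**
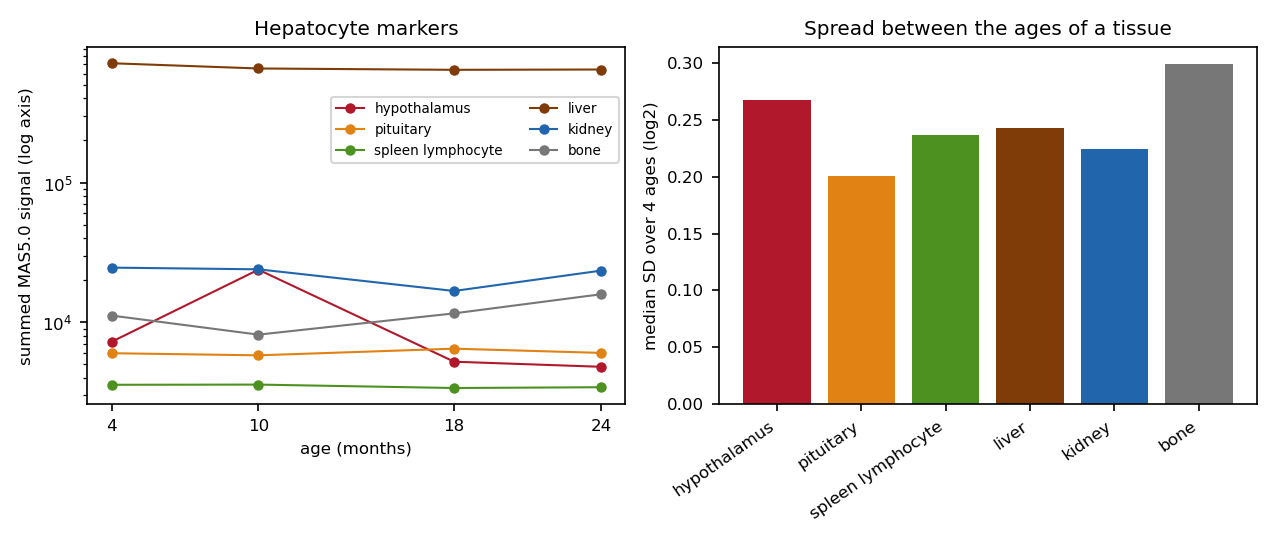
Left, summed MAS5.0 signal of the 27 tested hepatocyte markers (log axis) against age in months, 1 point per array and 1 line per tissue. Right, median SD over the 4 ages of a tissue on the log2 scale. The hypothalamus sum is 23770 at 10 months and 4796 to 7240 at the other ages, and its median SD of 0.267 is below that of bone only.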

How the data were processed

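Each of the 24 arrays (Affymetrix RAE230A) carried RNA of 1 tissue and 1 age, mixed in equal parts from 10 male rats. The deposited values are linear intensity signals, 1 per probe set, which the authors computed with MAS5.0 and scaled to a target of 500 per array. Sources used here do not give its version. No depth applies to arrays, and their number limits the precision. Of 15923 probe sets, 57 were controls, 12789 carried 1 gene symbol, 312 several and 2771 none in the platform annotation, and 12754 of the named ones matched the RefSeq table.

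The study kept, of several probes of a gene, the one present in most samples. Here presence was set as a signal at or above 100 and ties were decided by the mean, both choices of the re-analysis (10411 genes, 1869 of them with over 1 probe set). Genes at or above 100 on at least 4 arrays (9682) were tested on log2 of signals floored at 100. A linear model with 1 mean per tissue was fitted with limma 3.58.1 in R 4.3.3. Its contrasts were hypothalamus minus the mean of the 5 other tissues and hypothalamus minus pituitary, with moderated tests and Benjamini-Hochberg adjustment over all genes tested. Other steps used matplotlib 3.10.9, pandas 2.3.3 and numpy 2.4.6 in Python 3.11.15, and the model was tested on simulated data. The study's own comparison was between ages, so the comparison between tissues is that of the labels.

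All 6 tissues were taken from each rat of an age. Across genes, deviations of a hypothalamus array from its tissue mean correlated with those of the same-age arrays by -0.199 to 0.14.

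Gene lists (35) and named genes were chosen with earlier results of these data known. Named were the 20 largest and up to 12 most negative differences among genes called and apart, each neuropeptide gene past the floor, per other list the 4 largest differences in either direction and any opposing member, the 6 largest per direction against pituitary, the 8 largest ranges over the ages, defining markers and second probe sets, and some further list members were named after their values were seen. Promoters are those of RefSeq, build GRCr8. Alternatives covered the floor, normalization, filter, probe set rule, replicate block, array weights, tissue term, and leaving out arrays or tissues.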

Additional observations from a re-analysis of the deposited data

Results flagged for a closer look

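In groups of 4 arrays, 1 hypothalamus age was flagged where its gap to the nearest other age exceeded Dixon's critical share of the whole range, which chance alone gives for about 1 in 20 groups. Of 35 summed list signals 4 were flagged, of 223 named genes at or above the floor on all 4 arrays 16, and of 4 array measures 0.

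The 10-month array stood apart in liver genes. The summed signal was 23770 there for hepatocyte markers and 9951 for complement, coagulation and serum proteins, against at most 7240 and 5433 at the other ages. Alb (9579.5), Gc (1456) and Ttr (1099.9) were each highest on this array. Gfap of astrocytes (4148) was lowest and the endothelial receptor Kdr (306) highest at 10 months.

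The 4-month array held the highest value of the synaptic genes Syngr3 (4705), Syp (4639.5), Vamp2 (5749) and Slc32a1 (2064) and of the granin precursor Vgf (3120.1), and the lowest of Nkx2-1 (522). On the 24-month array the summed signal of neuronal RNA-binding genes was highest (21410, against 16430 to 16640 at the other ages), as were Snap25 (14711), Pbx3 (2212) and Grp (248), while Vsnl1 (3916.5) was lowest. On the 18-month array Nucb2 (484) was highest, and the summed signal of the kidney epithelium list was lowest, at 4197 against 4625 to 4697. Most of each sum was Calb1, which neurons also use and which was itself lowest at 18 months. Of the 19 markers, 13 lay under the floor on all 4 hypothalamus arrays, and their median deviation was 0.0 at every age. The sum thus shows no drop of kidney markers as a group.

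Probe sets with no single gene name were outside the comparisons. Of 2258 such probe sets past the filter, 54 were apart above the 20 other arrays.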

How the results depend on the processing

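The counts of genes called against the 5 tissues stayed within 1.5 times of 1183 higher and 1084 lower under every alternative but 1. With the 20 other arrays as 1 group and no tissue term, 427 genes were lower, 69.6% of the calls were higher (52.2% otherwise, and 49.7 to 53.4% with other floors and scalings), and 5 lists had more members lower than higher, against 12. Leaving out 1 hypothalamus array gave 1162 to 1222 higher and 1062 to 1149 lower, against pituitary 725 to 767 and 821 to 923, and 183 to 192 genes apart above. Genes apart below numbered 5 to 8 in these, with 8 without the 4-month or the 24-month array. They numbered 3 with no floor, with quantile normalization and with median centring, 28 without the pituitary arrays, 14 without the liver or the kidney arrays, and 8 without the bone arrays. Genes apart above numbered 102 with the filter on 12 arrays and 387 without the pituitary arrays. With age as a replicate block, which pairs the tissues of the same rats, 1183 were higher and 1085 lower, against pituitary 744 and 858, and among named genes Fgg lost its call against pituitary. Array weights, no filter and the other probe set rules left the counts over all genes within 1.5 times. Of 203 named genes called against the 5 tissues, 72 lost the call under at least 1 alternative, 55 of them with no tissue term. Against pituitary, 42 of 173 lost it. Among these were Gnas and Resp18 with quantile normalization and Kcnma1 with the mean of all probe sets. The sign turned in 5 cases, for which the cause was not tested. They were Arnt2 with quantile normalization (-0.12), Kcnip3 (-0.082) and, against pituitary, Cdh22 (0.28) with the mean of all probe sets, and Apoc3 (0.088) and Gc (0.13) without the liver arrays. After quantile normalization the probe set of each gene was chosen anew, so the value of Arnt2 may come from another probe set. The lists with more members higher were 20 to 22 and those with more lower 12 to 14 when 1 hypothalamus array was left out. With the hypothalamus array of 10 months and the kidney array of 18 months left out, a setting chosen after seeing the data, 1186 were higher and 1077 lower. Differences under the floor were not measured.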

Other observations

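Of the 54 probe sets with no single gene name that were apart above 1 had the widest gap to the next array. It measured 11440.3, 12216, 12021 and 14644 in the hypothalamus at 4, 10, 18 and 24 months, against at most 431 elsewhere. Another of them measured 8578, 9484, 10501 and 12158, against at most 625. Of the unnamed probe sets, 1 was apart below.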
